A study of Homo sapiens with 2 samples.

Results

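Immediate early response genes are switched on within minutes of a growth, stress or antigen receptor signal, without new protein synthesis. Their transcription is driven by factors that already sit at their promoters, chiefly serum response factor (SRF) on CArG boxes and CREB family factors on cyclic AMP response elements (CREs). Many of the products are transcription factors themselves: FOS and JUN proteins pair through leucine zippers to form AP-1, which takes part in T-cell activation, and others such as the phosphatase DUSP1 shut the signal off again. Most of the genes are short with few introns, and their mRNAs decay fast.

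The 10 genes described here were FOS, FOSB, FOSL2, JUN, JUNB, JUND, EGR1, IER2, ATF3 and DUSP1, taken by name from GENCODE release 44 out of 20033 protein-coding genes. A peak was assigned to a gene when it lay within 3 kb of any of its transcript starts (a promoter peak), over its body, or within 1 kb past its end.

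To locate NUDT21 on chromatin, the study profiled J.gamma1, an established T-cell acute lymphoblastic leukemia line derived from Jurkat, by CUT&Tag, in which an antibody guides a transposase to its target and the cut DNA is sequenced. NUDT21 is the subunit of the pre-mRNA cleavage factor CFIm that reads UGUA in RNA upstream of poly(A) sites. There were 2 biological replicates in 1 group, with no treatment named, no contrast and no control sample analysed here, so no test was made and counts are set beside the share of all protein-coding genes. J.gamma1 was selected from Jurkat for the loss of phospholipase C gamma 1, which relays the T-cell receptor signal to calcium and MAP kinases, and no stimulus was stated.

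The authors' lists held 97162 peaks in replicate 1 and 68532 in replicate 2. The fold of a peak is its enrichment at the summit over a control level, and it was ranked within its own list. A fold percentile is the share of the list's peaks on chromosomes 1 to 22, X and Y with a lower fold. The 95th percentile corresponded to a fold of 8.12 in replicate 1 and 7.93 in replicate 2. Of 10 T-cell marker genes, 8 carried promoter peaks in both lists, as did 6 of 10 markers of other blood cells, against 57% of all protein-coding genes. Peaks were not read as expression.

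The 10 genes held 21 peaks in replicate 1 and 28 in replicate 2. Each of the 10 had a promoter peak in both lists, where 57% of all protein-coding genes did. Of the 10, FOSL2 and ATF3 are longer than 10 kb, and the other 8 are compared below with the 5133 protein-coding genes of at most 10 kb (the short genes), of which 54.7% had a promoter peak in both lists. All 10 also had a peak over the gene body in both, against 59.8% of all genes. The genes nevertheless fell into distinct shapes in the locus maps, and the following paragraphs take them by role. EGR1 and FOSB carried separate start and end peaks, JUNB and IER2 lay wholly under 1 peak, and FOSL2 and ATF3 had the lowest start peak percentiles in both replicates.

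**Figure D1:**
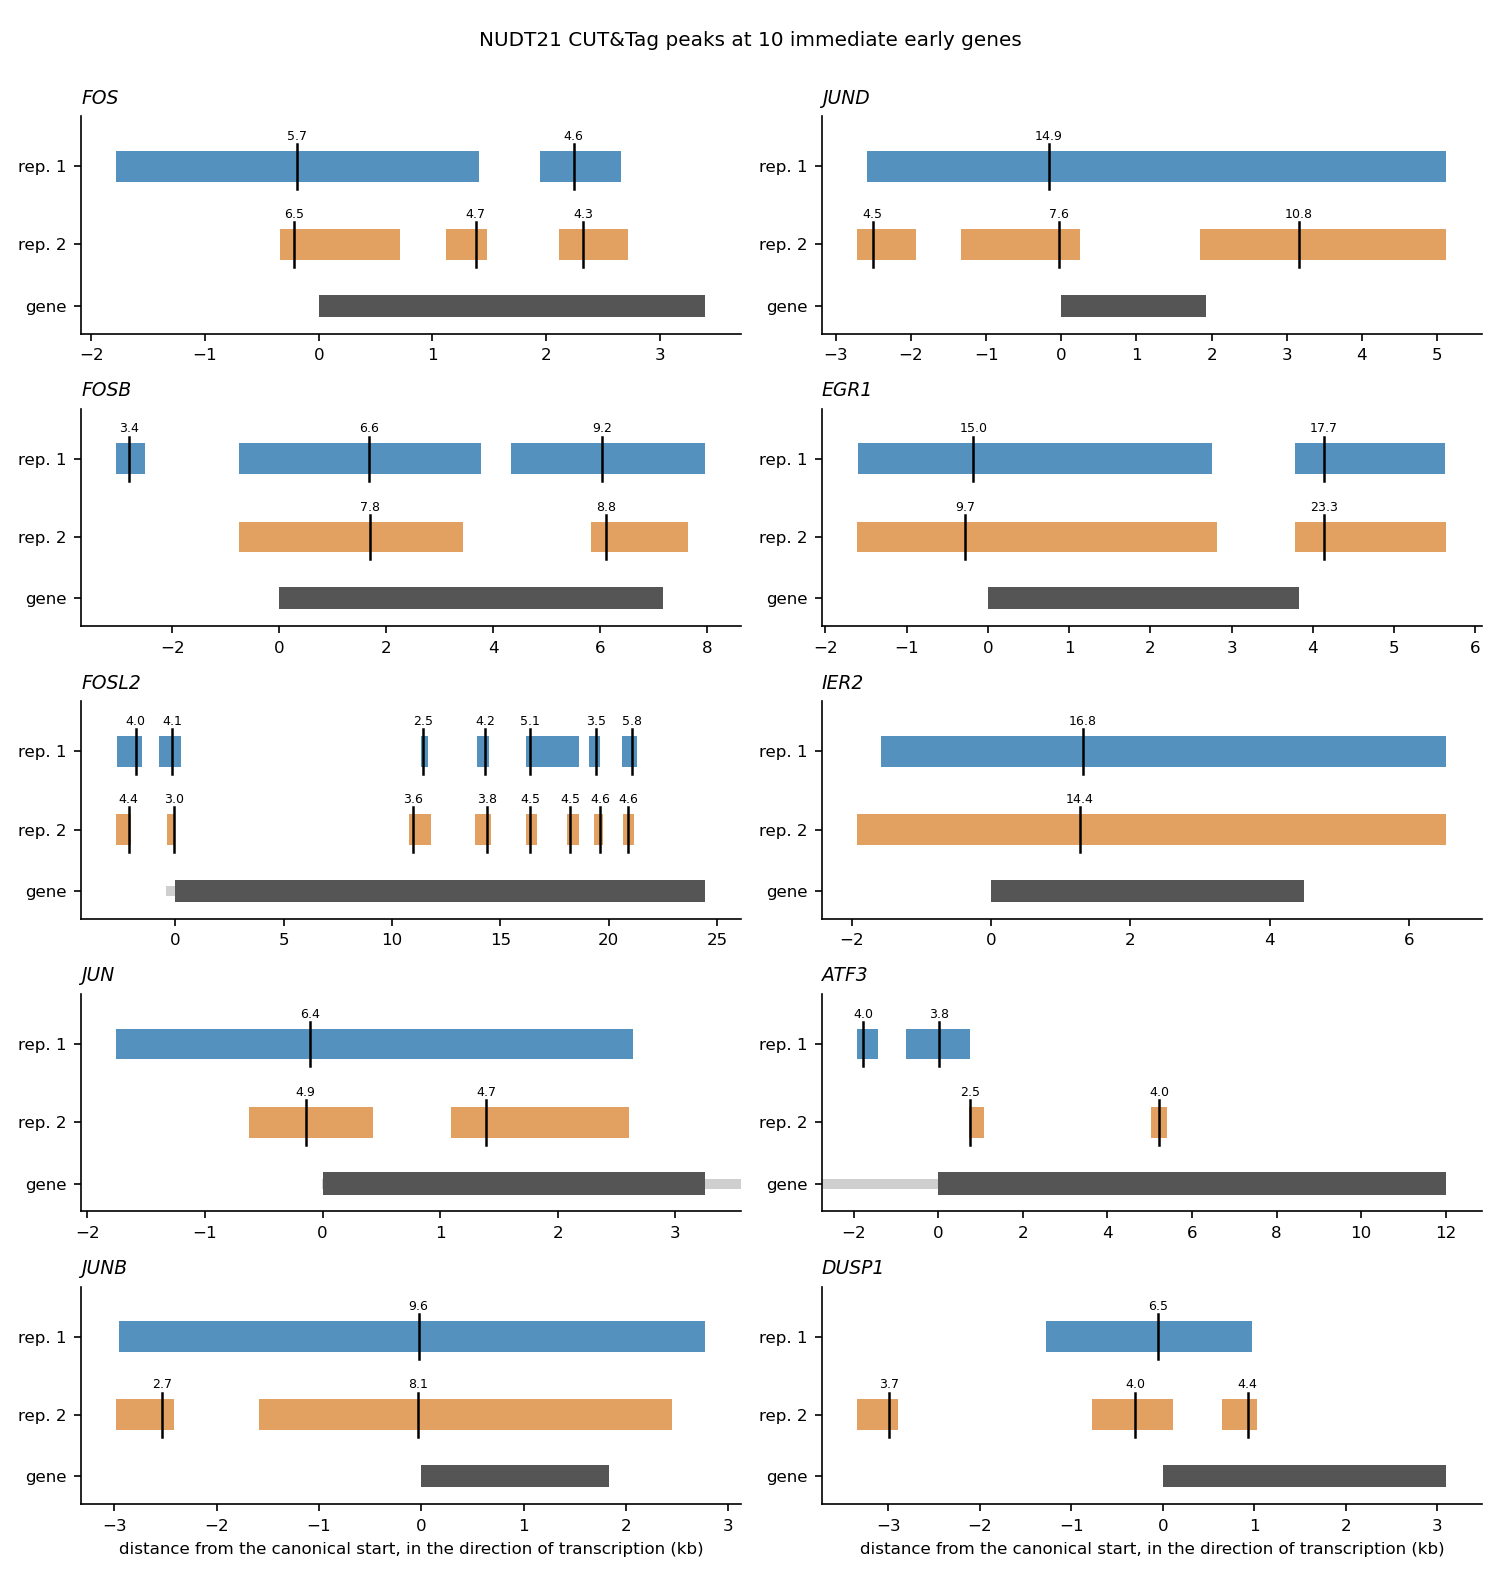
Peaks at the 10 genes, plotted by distance from the canonical transcript start in kb, with transcription running to the right. Blue bars are peaks of replicate 1, orange bars peaks of replicate 2, black ticks the summits with their fold, dark bars the canonical transcript and thin grey bars the rest of the gene record (ATF3's and JUN's run off the axis). One bar spans IER2 in both replicates, whereas EGR1 shows separate bars at its start and end.

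The sequences that the start peaks cover are shown first, because in some of the genes they hold elements known for this response. The search used a CArG box (CC, then 6 bases of A or T, then GG) and the CRE TGACGTCA on both strands of hg38, from 500 bases before to 100 after the canonical start and within 150 bp of the replicate 1 summit of the start peak. The start peak is the one nearest the canonical start. Capitals mark the element, and each line is 30 bases of the gene's own strand, 5′ to 3′.
FOS CArG box, chr14:75278504-75278533, plus strand: cacaggatgtCCATATTAGGacatctgcgt
FOSB CArG box, chr19:45467712-45467741, plus strand: cggccgagctCCTTATATGGctaattgcgt
EGR1 CArG box a, chr5:138465051-138465080, plus strand: cccggaaatgCCATATAAGGagcaggaagg
EGR1 CArG box b, chr5:138465089-138465118, plus strand: ccggaacaacCCTTATTTGGgcagcacctt
EGR1 CArG box c, chr5:138465105-138465134, plus strand: ttgggcagcaCCTTATTTGGagtggcccga
EGR1 CArG box d, chr5:138465364-138465393, plus strand: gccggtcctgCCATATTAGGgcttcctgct
EGR1 CArG box e, chr5:138465386-138465415, plus strand: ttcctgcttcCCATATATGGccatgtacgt
IER2 CArG box, chr19:13151844-13151873, plus strand: cgggccctgtCCTAATATGGgcaaccggaa
FOSB CRE, chr19:45467660-45467689, plus strand: gggattccctcTGACGTCAttgctaggata
JUND CRE, chr19:18281804-18281833, minus strand: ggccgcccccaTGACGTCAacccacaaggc
DUSP1 CRE, chr5:172771302-172771331, minus strand: ggcagggcgggTGACGTCAccgccccgtca

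All 11 elements lay under a peak in both replicates, 5 of them at EGR1. The search kept to the canonical starts and the replicate 1 summits, near which every member had a peak. This overlap was therefore largely set by the search, and its share over all genes was not counted. A CArG box was present in the start window of 3 of the 10 genes (FOS, FOSB and EGR1), against 2.58% of the windows of all 20033 protein-coding genes. Within 150 bp of the replicate 1 summit it was present in 3 of 10 (FOS, EGR1 and IER2), against 0.692% of 13301 genes with a start peak. A CRE was present in the start window of 3 of 10 (FOSB, JUND and DUSP1), against 3.21% of all, and near the summit in 2 of 10 against 1.97%. SRF and CREB are known to act on genes of this kind, so the presence of these letters describes the genes and not the peaks. An AP-1 site (TGACTCA or TGAGTCA) was present in 1 of 10 start windows against 6.82%, and in none near the summit against 2.64%. The DNA form of the NUDT21 RNA motif, TGTA, was near the summit in 6 of 10 genes against 45.3% of all, and in the start window of 8 of 10 against 79%.

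FOS, the AP-1 partner that gives the family its name, spans chr14:75278826-75282230 on the plus strand. Its start peak in replicate 1 was 3192 bp long with a fold of 5.72, at the 83.3rd percentile. Its summit held 61 fragments (95% Poisson interval 46.7 to 78.4, counting error only) over a control level of 9. In replicate 2 the start peak was shorter, 1049 bp, with a fold of 6.49 at the 88.5th percentile, and 38 fragments stood over a control of 5.01. The summits lay 191 and 220 bp upstream of the canonical start, 29 bp apart. They were 119 and 90 bp from the CArG box printed above. A weaker peak lay in a coding exon in both replicates, with its summit 2243 bp from the start at a fold of 4.62 in replicate 1 and 2326 bp from it at 4.26 in replicate 2. Between them replicate 2 had another peak, with a fold of 4.67 at the 62.8th percentile. Its summit was in an intron, 15 bp from another annotated start of FOS, at a place that the start peak of replicate 1 covered. No FOS peak reached the gene end in either replicate, and the start peak covered 41.6% of the gene in replicate 1 and 21.0% in replicate 2.

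FOSB, a FOS paralogue, spans chr19:45467995-45475179 on the plus strand and had the summits of its start and end peaks inside the gene. The start peak ran from chr19:45467250-45471765 in replicate 1 (fold 6.64, 90.0th percentile) and from chr19:45467252-45471430 in replicate 2 (fold 7.77, 94.6th percentile). Both summits were in an intron of the canonical transcript, 1680 and 1700 bp downstream of the canonical start. They were 200 and 180 bp from another annotated start of FOSB. The elements printed for the canonical start of FOSB were therefore about 2 kb from the summit, at 1950 bp for the CArG box and 2002 bp for the CRE in replicate 1. A separate peak at the gene end ranked above the start peak by fold in both replicates. Its fold was 9.23 in replicate 1 (96.7th percentile, 59 fragments over a control level of 5) and 8.84 in replicate 2 (96.9th percentile, 30 fragments over 2.51). The start summit held more fragments in both replicates, 71 over 9 and 46 over 5.05. By fragments the 95% intervals of start and end overlapped, while the control level was lower at the end. The end summits were in the 3′ UTR, 1139 and 1073 bp before the gene end, and the end peaks reached 788 and 453 bp past it. In replicate 1 that peak also came within 3 kb of a start of ERCC1, a DNA repair gene, and in replicate 2 it did not. Replicate 1 alone had a further peak with its summit 2814 bp upstream of the start, at a fold of 3.39 (31.8th percentile).

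FOSL2, a FOS-related AP-1 subunit, spans 24870 bp at chr2:28392448-28417317 and carried 7 peaks in replicate 1 and 8 in replicate 2. They were 312 to 2465 bp long in replicate 1 and 327 to 1017 bp in replicate 2, and the longest was in an intron. The start peak had a fold of 4.08 at the 53.4th percentile in replicate 1, and 2.99 at the 10.2nd percentile in replicate 2. A start of the antisense gene FOSL2-AS1 lay within 3 kb of it in both replicates. The highest fold of the gene in either replicate was at the same place in the 3′ UTR, with 5.78 (83.8th percentile) and 4.61 (60.5th percentile). FOSL2 was thus the FOS family gene with the lowest start peak in both lists.

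JUN, the main AP-1 partner of FOS, spans chr1:58776845-58784048 on the minus strand, with a canonical transcript of 3257 bp in 1 exon. Replicate 1 had 1 peak of 4389 bp with a fold of 6.39 at the 88.5th percentile. Replicate 2 had a peak at the start, fold 4.88 at the 67.3rd percentile, and another in the coding exon, fold 4.71 at the 63.6th percentile. All of the replicate 2 bases lay under the replicate 1 peak, so the same stretch was called whole in one list and in pieces in the other. At the start summit JUN had 193 fragments (95% interval 166.7 to 222.2) in replicate 1, more than EGR1's start at 182, over a control level of 27 against 10.2 at EGR1. This control level, and the 15.6 at the start peak of replicate 2, were the highest among the member peaks of their lists. The summits were 104 and 142 bp upstream of the canonical start. The starts of LINC01135 and ENSG00000290013, both non-coding, lay within 3 kb of these peaks.

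JUNB, the AP-1 subunit that competes with JUN for partners, is 1830 bp long at chr19:12791486-12793315 and lay entirely under 1 peak in both replicates. The peak was 5734 bp long in replicate 1 (fold 9.63, 97.2nd percentile, 93 fragments) and 4042 bp in replicate 2 (fold 8.15, 95.6th percentile, 48 fragments). The summits were 28 and 29 bp upstream of the start, 1 bp apart, the closest pair among the 10 genes. A start of HOOK2, a gene for a microtubule linker, lay within 3 kb of the peak in both replicates.

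JUND, the JUN family member with steady expression, is 1929 bp long at chr19:18279694-18281622 on the minus strand, and here the replicates differed in shape. In replicate 1 a single peak of 7706 bp covered all of it, with a fold of 14.9 at the 99.4th percentile and 225 fragments, the most of any member peak. In replicate 2 the same stretch held 3 peaks. The start peak there had a fold of 7.59 (93.9th percentile, 70 fragments over a control level of 8.355) and covered 13.3% of the gene. A second peak had a higher fold with fewer fragments, 10.8 (98.7th percentile, 52 fragments over 3.90), with its summit 1235 bp past the gene end. That peak and the replicate 1 peak reached within 3 kb of a start of IQCN. The start summits were 168 and 26 bp upstream of the start and 29 and 171 bp from the CRE.

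EGR1, a zinc finger factor induced through CArG boxes, spans 3825 bp at chr5:138465479-138469303 and had peaks at both ends. The start peak was 4363 bp in replicate 1 (chr5:138463880-138468242) and 4427 bp in replicate 2 (chr5:138463872-138468298), so its outer edges differed by 8 bp upstream and 56 bp downstream. It covered 72.3% and 73.7% of the gene. Its fold was 15.0 in replicate 1, rank 568 of 92722, and 9.70 in replicate 2, rank 1371 of 66671. The summits lay 178 and 280 bp upstream of the start, among the 5 CArG boxes, with box d 77 bp from the replicate 1 summit and box c 80 bp from that of replicate 2.

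The end peak of EGR1 had the highest fold of any member peak in both replicates. It ran over chr5:138469264-138471106 in replicate 1 and chr5:138469257-138471121 in replicate 2, beginning in the last 50 bases of the gene. In replicate 1 its fold was 17.7, rank 305, with 172 fragments (147.3 to 199.7) where the control level was 8. In replicate 2 its fold was 23.3, rank 23, with 126 fragments (105 to 150) over 4.46. The summits were 310 and 316 bp past the gene end, 6 bp apart. The fragments at the start summit were 182 (156.5 to 210.4) in replicate 1 and 106 (86.78 to 128.2) in replicate 2. By fragments the intervals of start and end overlapped in both replicates, while the control level was lower at the end. A start of RPL7P19, a ribosomal protein pseudogene, lay within 3 kb of the end peak.

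IER2, a small nuclear protein of the early response, spans 4501 bp at chr19:13150411-13154911 and lay under 1 very broad peak. The peak was 8118 bp in replicate 1 and 8464 bp in replicate 2, the 694th and 244th longest of their lists. The fold was 16.8 (rank 368) with 92 fragments over 4.09 at the control level, and 14.4 (rank 236) with 47 fragments over 2.34. The control level in replicate 2 was the lowest at any member peak of that list. The summits were 1316 and 1274 bp downstream of the canonical start, in an intron of the canonical transcript. They were 248 and 290 bp from another annotated start of IER2, and 131 and 173 bp from the CArG box printed above. A start of STX10, a membrane fusion gene, lay within 3 kb of the peak in both replicates.

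ATF3, a stress-induced factor of the ATF/CREB family, had the start peak of lowest fold in both replicates. Its gene record is 55444 bp long, at chr1:212565334-212620777, with 7 annotated starts. The peak at the canonical start had a fold of 3.76 in replicate 1 (44.03rd percentile, 52 fragments), and the nearest peak in replicate 2 had a fold of 2.55 (2.22nd percentile, 20 fragments). Their summits were 724 bp apart and the replicates shared 23 bp, the only gene where the lists hardly overlapped. With a stricter threshold, a −log10 q of at least 5 in both lists, 9 of the 10 genes kept a promoter peak and ATF3 lost its own in replicate 2.

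DUSP1, the phosphatase that inactivates MAP kinases and so ends the signal, spans 3100 bp at chr5:172768096-172771195 on the minus strand. Replicate 1 had 1 peak of 2258 bp with a fold of 6.46 at the 88.8th percentile and 51 fragments. Replicate 2 had 3 peaks with folds of 3.69, 4.03 and 4.40, of which the one at the start was at the 44.1st percentile with 21 fragments. The start summits were 56 and 301 bp upstream of the start and 66 and 179 bp from the CRE. Of these 3 peaks, 2 touched the replicate 1 peak, and the third lay upstream of it.

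**Figure D2:**
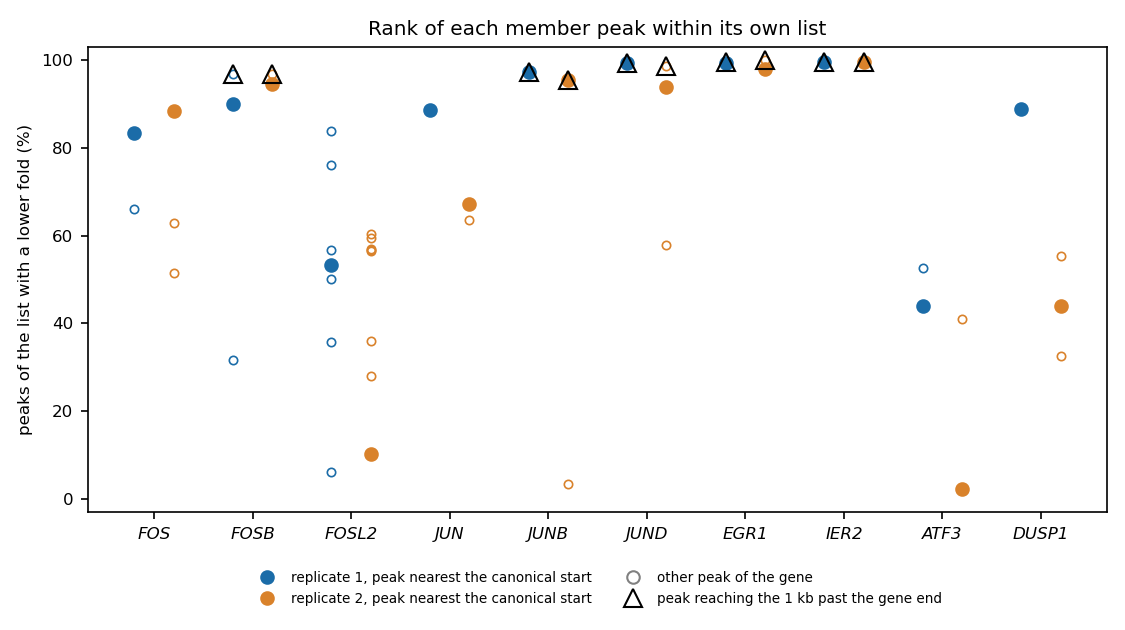
Fold percentile (vertical axis, percent of the list's peaks with a lower fold) of every member peak. Filled points are start peaks and open points other peaks, in blue for replicate 1 and orange for replicate 2. Black open triangles mark peaks that reach the 1 kb past the gene end. All 10 triangles, from FOSB, JUNB, JUND, EGR1 and IER2, lie at 95.6 or above, while the points of ATF3 lie at 52.5 or below.

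Set side by side, the start peaks had a median fold percentile of 89.4 in replicate 1 (range 44.03 to 99.6) and 91.2 in replicate 2 (range 2.22 to 99.6). Over all protein-coding genes with a start peak the medians were 75.7 and 67.3. The 8 short members had medians of 93.6 and 94.3, against 83.3 and 78.2 over the short genes with a start peak. A start peak at or above the 95th percentile in both replicates was found for 3 of 10 genes (EGR1, JUNB and IER2), against 7.64% of all and 11.2% of short genes. With the strongest peak within 3 kb of a start in place of the start peak, 5 of 10 passed (also JUND and FOSB). This was against 10.8% of all and 14.5% of short genes. That strongest peak was the separate end peak in FOSB in both replicates and in JUND in replicate 2. The same peaks are counted again at the gene ends below. The start summits lay close to an annotated start, at a median of 136 and 199 bp, much like all genes with a start peak, at 154 and 204 bp.

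**Figure D3:**
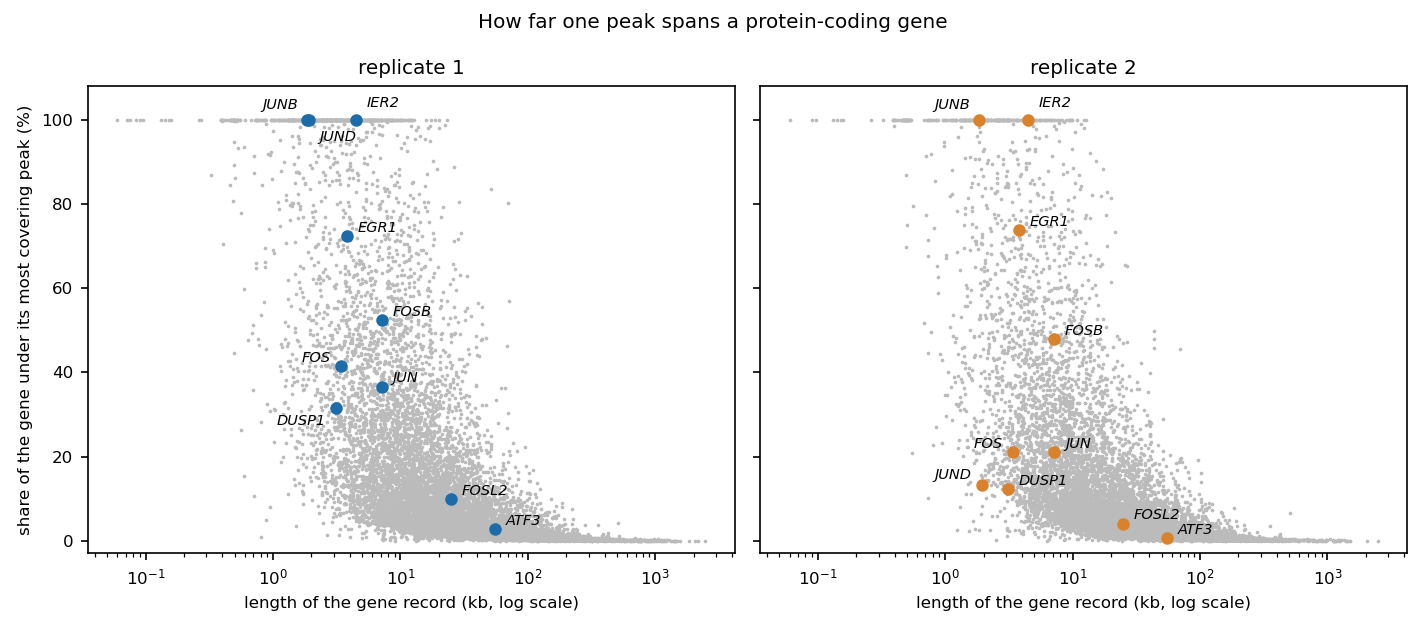
Share of each protein-coding gene under its most covering peak (vertical axis, percent) against the length of the gene record (kb, log scale), for replicate 1 and replicate 2. Grey points are all genes with a peak over the body and coloured points the 10 genes. The grey points fall with length, JUNB and IER2 sit at 100 in both panels, and JUND falls from 100 to 13.3.

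Longer genes had smaller shares under 1 peak, as the plot of span by length shows for all genes. One peak covered a median of 47.0% of the gene in replicate 1 (range 2.74 to 100) and 21.0% in replicate 2 (range 0.669 to 100). The medians over all genes with a body peak were 3.81% and 3.71%, and over genes of at most 10 kb 29.3% and 24.7%. The 8 short members had medians of 62.4% and 34.4%, above the short genes in both replicates. One peak covered the whole gene in both replicates for 2 of 10 (JUNB and IER2), against 1.16% of all genes. Both are among the 8 short members, and 4.46% of short genes were covered in this way. In replicate 1 alone it was 3 of 10, against 2.4%. At least 50% of the gene was covered in both replicates for 3 of 10 (also EGR1), against 3.5% of all genes. These 3 are among the 8 short members, where the share of short genes was 12.3%. The start peaks of the 8 short members had a median length of 4452 bp in replicate 1 and 2816 bp in replicate 2, where the short genes had 1527 and 1226 bp.

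At the gene ends, 5 of 10 genes had a peak reaching within 1 kb past the end in both replicates, against 20.1% of all genes. These were EGR1, JUNB, IER2, JUND and FOSB, 5 of the 8 short members, where the share of short genes was 29.7%. The end peaks of these 5 were at or above the 95th percentile in both replicates, against 3.39% of all genes, 6.8% of short genes and 16.8% of the 4033 genes with an end peak in both. In 2 of them (EGR1 and IER2) they were at or above the 99th, against 1.1% of all genes. In JUNB and IER2, and in replicate 1 of JUND, this peak is the start peak, so its percentile is that of the start. Only in EGR1 did the summit itself lie within that 1 kb in both replicates, as in 5.94% of all genes. A start peak and a separate end peak in both replicates were found in EGR1 and FOSB, 2 of 10 against 16% of all. In both genes the end peak had the higher fold in both replicates, as in 4.23% of all genes. The share was 5.18% of short genes and 11% of the genes of chromosome 19, where FOSB lies. By fragments the start summit was higher in FOSB in both replicates and in EGR1 in replicate 1, with overlapping intervals. The control level was lower at the end in both genes and both replicates.

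**Figure D4:**
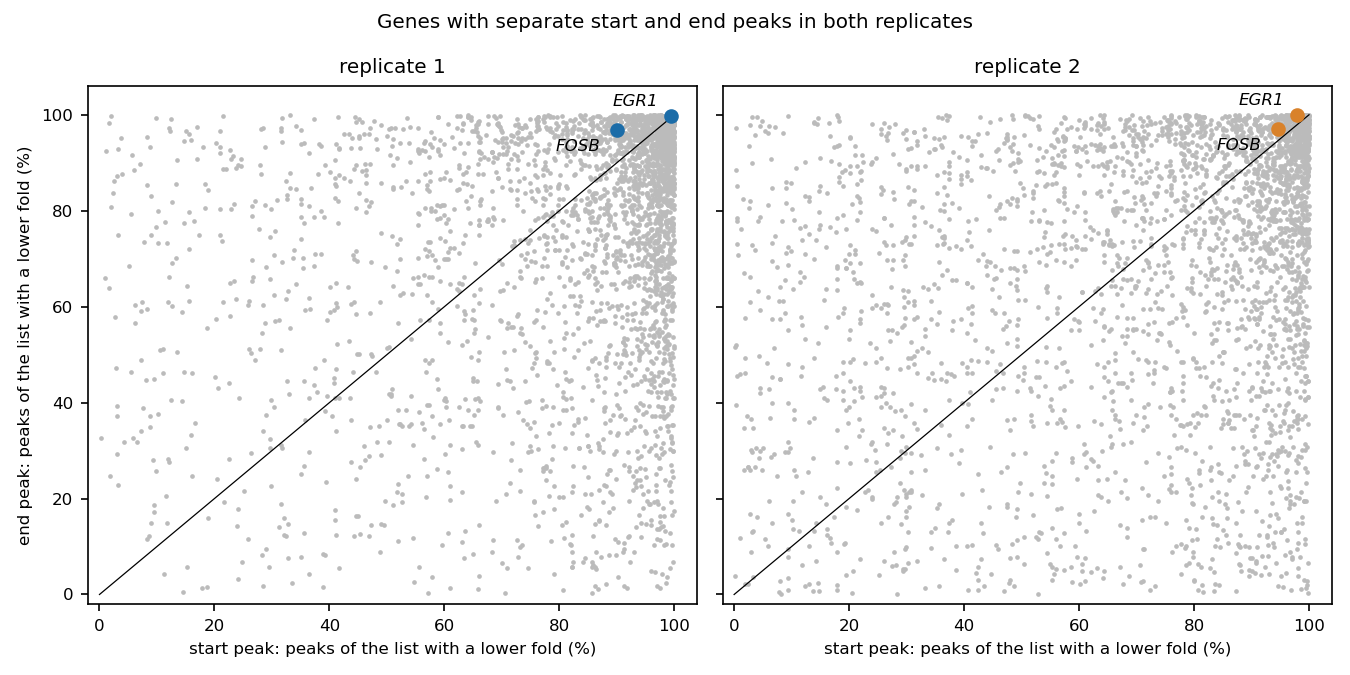
Fold percentile of the end peak (vertical axis) against that of the start peak (horizontal axis) for genes with separate start and end peaks in both replicates, one panel for each replicate. Grey points are all such protein-coding genes, coloured points EGR1 and FOSB, and the line marks equal percentiles. Both genes lie above the line in both panels, with EGR1 in the upper right corner.

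The last bases of the 3 genes with the polyadenylation signal sequence AATAAA under an end peak are shown because NUDT21 acts on the RNA made there. Capitals mark the last AATAAA before the end, and each line is 30 bases of hg38 near the end of the canonical transcript, all on the plus strand. The marked hexamer of EGR1 begins 9 bases from the end, against 23 in FOSB and 27 in IER2. The EGR1 line also holds an unmarked ATTAAA farther from the end, and which hexamer is used was not tested.
EGR1 end, chr5:138469274-138469303: cttccaaaaaattaaaacgaaAATAAAgta
FOSB end, chr19:45475145-45475174: tgcactgttgccAATAAAaagctcttaaaa
IER2 end, chr19:13154873-13154902: gtcagataggaaAATAAAaaccatttgagt

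AATAAA or ATTAAA was present in the last 50 bases of 8 of the 10 transcripts, against 77.4% of all genes, and absent from that window in JUNB and JUND. TGTA on the gene's strand was present in the last 100 bases of 4 of the 10 (FOSL2, JUN, EGR1 and ATF3), against 51.9% of all. Among the 5 genes whose last base lay under a peak in both replicates, EGR1 was the only one with TGTA in that window.

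Of those 5 genes, 4 (FOSB, JUNB, JUND and IER2) lie on chromosome 19, where peaks were dense. Of the 1476 protein-coding genes of chromosome 19, 81.8% had a promoter peak in both replicates, 47.6% a peak reaching past the end, and 39.9% separate start and end peaks. An end peak at or above the 95th percentile in both replicates was found in 11.8% of them. A start peak at that level in both was found in 20.6%, and a strongest promoter peak in 31.9%. The 4 genes had a GC content of 57.6% (FOSB), 64.9% (JUNB), 69.9% (JUND) and 62.4% (IER2), against a median of 45.2% over all protein-coding genes and 52.8% over the short ones. EGR1, on chromosome 5, had 56.5%, and ATF3, with the lowest start peaks, had 43.2%, the lowest of the 10. The part of chromosome and base composition in these counts was not tested.

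The summits of the start peaks were 1 to 42 bp apart in FOS, FOSB, JUN, JUNB and IER2, 102 to 142 bp apart in FOSL2, JUND and EGR1, and 245 and 724 bp apart in DUSP1 and ATF3. The strongest promoter peaks lay farther apart in the genes where the lists ranked different peaks first, by 2004 bp in FOSL2, 3331 bp in JUND, 6995 bp in ATF3 and 983 bp in DUSP1. Of the bases under replicate 2 peaks, 93.9% to 100% were also under a replicate 1 peak in FOS, FOSB, JUN, JUNB, JUND, EGR1 and IER2, against 79.7% in FOSL2, 71.3% in DUSP1 and 3.16% in ATF3. Replicate 1 had more fragments at member summits, a median of 52 against 22.5. Its start peaks were longer in 8 of the 10 genes, and those of EGR1 and IER2 were longer in replicate 2.

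Other genes of the response were read from lists chosen by function. Of 30 further immediate early and feedback genes, a promoter peak was found in both replicates for 21, against 57% of all protein-coding genes, and in neither for 5. Both lists had an end peak in 9 of them, against 20.1% of all genes and 29.7% of short genes. In both lists 5 were at least 50% covered by 1 peak, against 3.5% of all and 12.3% of short genes. In 1 a separate end peak ranked above the start by fold in both replicates, where 4.23% of all and 5.18% of short genes had one. The highest fold percentile was that of the stress kinase PLK3 in replicate 1, at 99.5 (98.3 in replicate 2), and that of the phosphatase DUSP2 in replicate 2, at 98.8 (96.6 in replicate 1). Of 20 genes upstream, the kinases and the factors that bind these promoters, 17 had one in both, against the same 57%, led by SRF itself at 99.04 and 98.6. All 10 listed dimer partners of the AP-1 proteins had one, also against 57%, led by the small MAF protein MAFG at 99.1 and 99.2, with BATF3 the lowest at 21.6 and 4.79.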

How the data were processed

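NUDT21 CUT&Tag of J.gamma1 cells was measured in 2 biological replicates. According to the methods and the submitters' processing notes, the authors trimmed reads with fastp, aligned them to hg38 with Bowtie2 2.2.5, removed duplicates with Picard and called peaks for each replicate with MACS3 3.0.1. The calling parameters and the control are not given in the sources used here. Each deposited peak carries its fold (a ratio of pileup plus 1 to control level plus 1), −log10 p, −log10 q and summit.

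The fold and −log10 p of the authors together give the fragments at a summit and the control level. This was solved for all member peaks and tested on simulated data. The simulated peaks were weaker than the strongest member peaks, so the largest fragment counts were not tested. The pileup of replicate 1 was scaled by 0.921. Intervals are Poisson and cover counting error only. Read totals are unknown, and what library gave the control level is not stated.

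Genes came from GENCODE 44 on hg38, and the Ensembl canonical transcript gave start and end. Sequences are those of hg38. All 10 members are named, other genes only where a member peak lies within 3 kb of their start or where they are at the extremes of a list. The members and lists were chosen with earlier results of these data known. The end-window motif search, the comparison of separate start and end peaks, the chromosome 19 and GC values and the canonical-start alternatives were chosen after seeing the data. Python 3.11.15, pandas 2.3.3 and scipy 1.17.1 were used.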

Additional observations from a re-analysis of the deposited data

How the results depend on the processing

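No paired analysis was possible because the only group holds both replicates. Of 33 alternative values for 7 results, 21 were labelled near the main value and 12 moved. What counted as near differed by result: 7 genes were labelled near 10, while a fold percentile of 92.0 was labelled moved from 91.1. All 10 genes kept a promoter peak under the other distances and in single replicates, 9 kept it when −log10 q had to reach 5, and 7 with the 10000 peaks of highest −log10 p in each list. The 5 genes with a peak past the end stayed 5 under the other windows, threshold and single replicates, but only 1 had its summit past the end in both. Requiring the summit inside the gene left 5 of 10 with a body peak. The median share of a gene under 1 peak was 40.7% over both replicates, and 21.0% to 47.0% in single replicates. It was 53.39% of the canonical transcript, and 57.35% with all peaks of a gene together. The median fold percentile of the strongest promoter peak, 91.1, was 96.2 by −log10 p, 87.6 among promoter peaks alone, 89.1 with starts within 1000 bp, 89.1 with the peak nearest the canonical start, and 92.0 to 92.8 in single replicates. The median distance of that peak's summit to a start, 380.2 bp, was 821.2 bp from the canonical start, 184.2 bp for the peak nearest the canonical start, and 173 to 419 bp in single replicates. With 2 replicates, 1 antibody and no control sample analysed here, the spread between them is the only measure of error, and sites without a peak may hold signal under the threshold.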
